A study of Mus musculus with 8 samples.

Results

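The genes described here encode the enzymes that add acetyl or methyl groups to histones, the enzymes that take methyl groups off, bromodomain proteins, which bind acetylated histones, and nuclear receptor coactivators. They were chosen by symbol alone, as the rows of the deposited table that begin with Kdm, Kat, Setd or Setdb, Ehmt, Suv, Ezh, Mll, Brd or Ncoa and a matching number or letter, together with Ep300 and Crebbp. Histone deacetylases were left out. The rule gave 62 of 11234 listed genes. The rule itself uses no measured value. In this table the Mll genes carry their newer Kmt2 symbols, so that the Mll part of the rule found 6 Mllt genes. These Mllt genes are named for fusion partners of Mll in leukaemia and are no histone methyltransferases.

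Interscapular brown adipose tissue was taken from male C57BL/6 mice of 12 weeks that had spent 2 weeks at 29 °C and were killed at 5 PM, 10 h into the light phase. RNA was treated to deplete ribosomal RNA (RiboZero) before sequencing. The 4 control libraries came from mice with a loxP-flanked Hdac3 gene (HDAC3 floxed), and the 4 knockout libraries from mice that carried in addition a Cre recombinase under the adiponectin promoter (Adiponectin-Cre, HDAC3 floxed). The floxed allele was shared by both groups. No Cre-only control was used here, and the promoter is active in adipocytes, so that other cells of the depot are not targeted. Whether the libraries stem from separate animals is not stated in the labels, and p-values therefore measure the spread between these libraries, which may be technical.

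Histone acetyltransferases such as EP300 and CREBBP place acetyl groups on enhancers and promoters, and histone deacetylases such as HDAC3, which works inside the NCoR and SMRT corepressor complexes, take them off. Methylation of H3K4 and H3K36 marks active genes, whereas methylation of H3K9 and H3K27 marks silent ones, and demethylases of the KDM family reverse these marks. In brown fat, EHMT1 works with PRDM16 to set the brown adipocyte identity, and mice without KDM3A become obese.

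Values are reads per kilobase of gene model, scaled to library depth (RPKM), and divided by a composition factor (TMM, a trimmed mean of log ratios between libraries). Wherever 4 values follow each other, they belong to control replicates 11, 12, 13 and 14 or to knockout replicates 4, 5, 19 and 20, in this order. Library totals ran from 13619308 to 17986134 reads, and 18.3% ± 1.28 of control and 23.2% ± 1.46 of knockout reads fell on listed genes (SD, n = 4 each), without overlap between the groups. Before that division, 1 read on a gene model of 1 kb was worth 0.0556 to 0.0734 RPKM. The members held 16 to 1684 reads per library, so the lowest of them rest on few reads. The targeted gene was lower in every library labelled knockout: Hdac3 stood at 6.91, 7.68, 7.98 and 8.0 RPKM in control and 2.66, 3.93, 3.62 and 2.93 RPKM in knockout libraries (exact permutation test over 70 splits, p = 0.0286 two-sided, which is the smallest possible here).

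The Ezh1 and Ezh2 promoters are shown because the ratio of these catalytic subunits of Polycomb repressive complex 2, which methylates H3K27, separated the genotypes. Each run gives the 250 bases before the transcription start in RefSeq (GRCm38.p6, minus strand, chr11:101226464-101226713 for Ezh1 and chr6:47595031-47595280 for Ezh2), with CpG dinucleotides in capitals.
Ezh1: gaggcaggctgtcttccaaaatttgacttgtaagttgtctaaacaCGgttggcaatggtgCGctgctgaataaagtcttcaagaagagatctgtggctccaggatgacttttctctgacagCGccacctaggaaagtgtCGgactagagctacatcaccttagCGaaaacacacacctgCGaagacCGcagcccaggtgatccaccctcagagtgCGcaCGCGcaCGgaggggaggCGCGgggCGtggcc
Ezh2: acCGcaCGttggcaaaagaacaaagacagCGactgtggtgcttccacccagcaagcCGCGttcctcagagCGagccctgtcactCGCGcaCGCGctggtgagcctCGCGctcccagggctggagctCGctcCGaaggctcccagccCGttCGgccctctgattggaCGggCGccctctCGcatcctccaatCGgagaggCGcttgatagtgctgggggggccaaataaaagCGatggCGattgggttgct
The Ezh1 window held 14 CpG dinucleotides and 55.2% G or C, and the Ezh2 window 23 and 63.6%. The median of 32851 such windows was 6 CpG dinucleotides and 52.4% G or C. Neither window held AGGTCA (a nuclear receptor half-site, found on either strand in 14% of windows), CACGTG (an E-box, 6.02%), TGACGTCA (a cAMP response element, 1.55%) or the E2F forms TTTCCCGC (0.895%), TTTGGCGC (0.417%) and TTTCGCGC (0.256%). These motifs do not contain one another. These letters describe the windows and say nothing of factors bound there.

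Across the family, changes were modest in size. Of the 62 members, 55 had a mean of at least 1 RPKM and were tested, and in knockout libraries 7 of them rose and 9 fell (moderated test of limma on log2(RPKM + 1), Benjamini-Hochberg over 8764 genes, threshold 0.05). The 16 called make up 29.1% of the tested members, against 35.3% of all tested genes, 19.4% higher and 15.9% lower. The groups did not overlap for 16 of the 55, against 34.8% of all tested genes. The median log2 fold change was -0.04 over the tested members and 0.01 over all tested genes. The share and the median of the members thus lay near those of all genes. Among the called members the largest rise was 1.56-fold (Setd5) and the strongest fall left 61.9% of the control mean (Kat6b). For 3 of the 55 members 1 genotype alone had a mean of at least 1 RPKM. With no filter, all 62 could be tested, and 9 rose and 10 fell, against 30.8% of all 11234 genes called. Summed over the 62 genes, the level was 171 to 180.3 RPKM in control and 175 to 185 RPKM in knockout libraries, and these ranges overlap. Dissected fat is a mixture, and fewer cells of a type cannot be told apart from less RNA per cell.

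**Figure D1:**
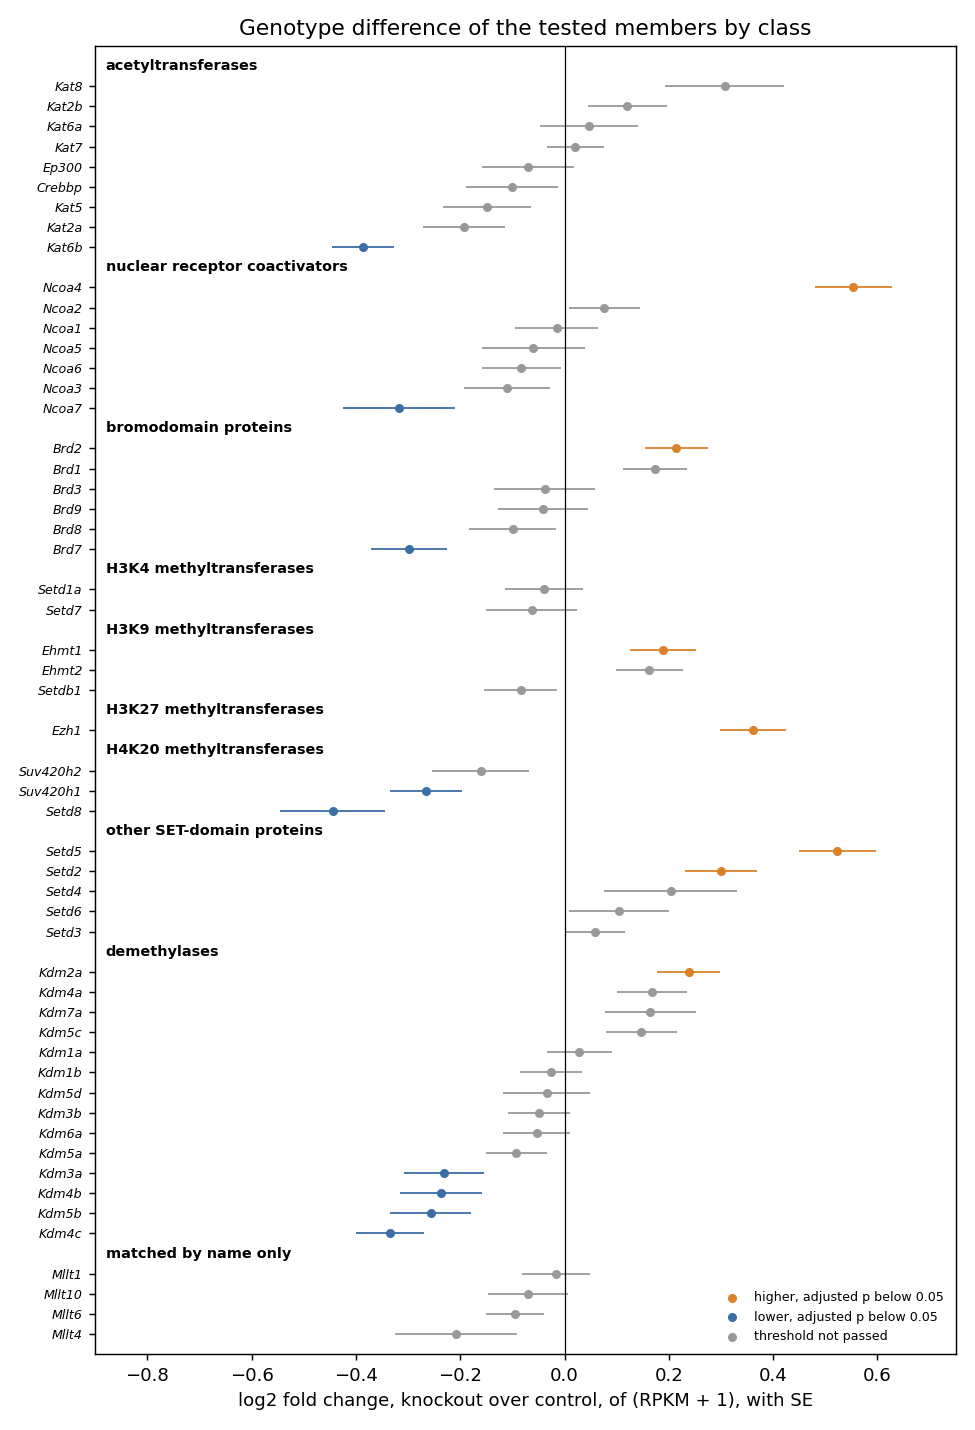
Log2 fold change (knockout over control, of RPKM + 1) with its SE for the tested members but 1, grouped by class; orange marks the 7 that rose, blue the 9 that fell and grey those that did not pass. Both directions occur among the coactivators, bromodomain proteins and demethylases, and most members lie within 0.2 of 0.

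The split between rises and falls depended on the scaling of the libraries. With the library total alone 14 members rose and 1 fell, against 31.9% and 7.17% of all tested genes (39.1% called). When libraries were scaled to the reads that fell on listed genes, called the listed-gene sum below, 3 rose and 15 fell, against 12.4% and 30.1% (42.5% called). The median log2 fold change of all tested genes was 0.14 and -0.11 under these scalings, so the directions below are relative to the TMM scaling. Brd1, Ehmt2, Kat2b, Kat8, Kdm4a, Kdm5c and Setd3 passed as higher with the library total alone and not with TMM (adjusted p = 0.0096, 0.00895, 0.0216, 0.0158, 0.00739, 0.0175 and 0.0467). Kat2a, Kat5, Kdm5a, Mllt4, Mllt6 and Suv420h2 passed as lower with the listed-gene sum and not with TMM (adjusted p = 0.016, 0.0313, 0.0165, 0.0415, 0.0156 and 0.0378). Ncoa4, Setd5 and Ezh1 rose and Kat6b fell under each of the 4 scalings tried, RLE size factors included. All tested genes gave 12.4% higher and 7.17% lower under each of the 4. A pseudocount of 0.1 and limma voom on recovered reads each gave 8 higher and 9 lower, against 35.2% and 36.8% of all genes called, 19.4% and 20.2% of them higher. With the filter raised to 2 RPKM, 7 rose and 4 fell of 39 members, against 41.3% called, 24% higher and 17.3% lower. By the FDR in the authors' deposited table, of 62 members 7 were higher and 12 lower, against 33.6% of all listed genes.

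**Figure D2:**
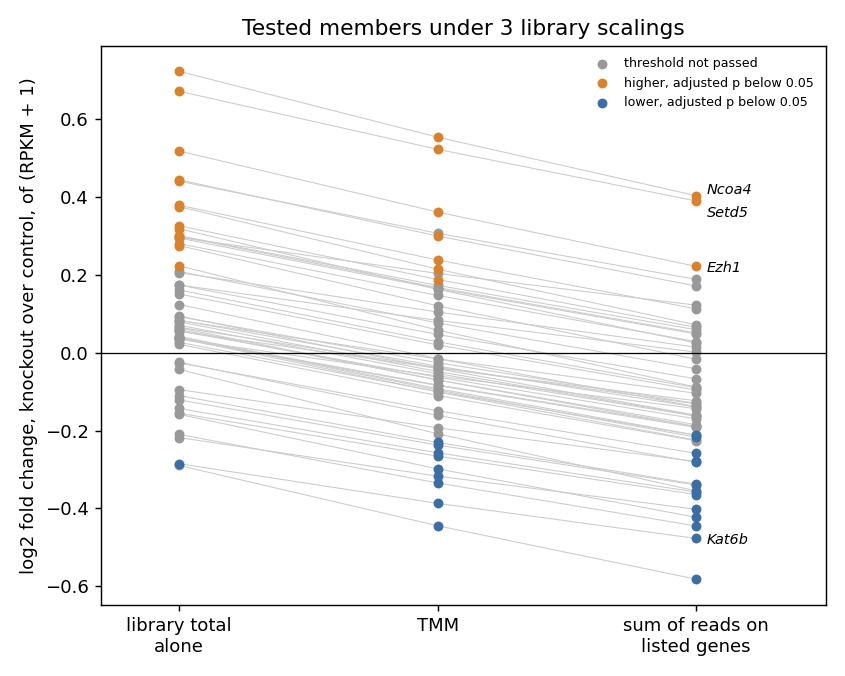
Log2 fold change (of RPKM + 1) of the 55 tested members with the library total alone, with TMM and with the listed-gene sum; each grey line is 1 gene, and colours mark the direction of genes past the threshold. All members shift together from left to right, from 14 higher and 1 lower through 7 and 9 to 3 and 15, and the 4 labelled genes keep their call.

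Among the acetyltransferases 1 of 9 fell and none rose, against 15.9% and 19.4% of all tested genes. The median log2 fold change of the class was -0.07. Kat6b, the catalytic subunit MORF of a complex that acetylates H3, stood at 1.74, 1.6, 1.55 and 1.56 RPKM in control and 1.03, 0.99, 0.944 and 1.03 RPKM in knockout libraries. Every knockout library lay below every control library (mean ± SD, n = 4, from 1.62 ± 0.087 to 1.0 ± 0.0423 RPKM; log2 fold change -0.39 with an SE of 0.06, adjusted p = 0.000779), and without any 1 library the adjusted p stayed at or below 0.00296. Its close paralogue Kat6a (MOZ) went from 2.37 ± 0.453 to 2.46 ± 0.0779 RPKM (SD, n = 4), with a log2 fold change of 0.05 (95% interval -0.16 to 0.26).

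Ep300, which acetylates H3K27 at enhancers, stood at 3.46, 2.9, 3.21 and 2.39 RPKM in control and 2.53, 2.99, 2.73 and 2.9 RPKM in knockout libraries. Crebbp, its paralogue, stood at 3.92, 3.03, 3.97 and 2.92 RPKM in control and 3.21, 3.15, 3.1 and 3.07 RPKM in knockout libraries. The control libraries of both genes spread more widely than the knockout libraries and enclosed them. Neither passed, with log2 fold changes of -0.07 (95% interval -0.27 to 0.13) and -0.10 (95% interval -0.30 to 0.09). The bounds are of RPKM + 1 under TMM scaling, so changes up to them, and somewhat larger ones in RPKM itself, remain possible. The log2 fold changes of Ep300 and Crebbp were 0.06 and 0.04 with the library total alone. With the listed-gene sum they were -0.19 and -0.22.

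Kat8 (MOF), which acetylates H4K16, stood at 2.79, 2.3, 2.2 and 2.04 RPKM in control and 3.59, 2.6, 3.82 and 2.58 RPKM in knockout libraries. Knockout replicates 4 and 19 were the high ones, and the groups overlapped (log2 fold change 0.31 with an SE of 0.11, adjusted p = 0.0603); it passed without control replicate 11 (adjusted p = 0.0426), knockout replicate 5 (adjusted p = 0.0393) or knockout replicate 20 (adjusted p = 0.0369), and with the library total alone (adjusted p = 0.0158). Kat2a (GCN5), the acetyltransferase of the SAGA complex, stood at 1.49, 1.21, 1.25 and 1.18 RPKM in control and 1.11, 0.821, 1.15 and 0.914 RPKM in knockout libraries. Its knockout libraries lay below its control libraries without passing the test (log2 fold change -0.19 with an SE of 0.08, adjusted p = 0.0827). Kat5 (TIP60), of the NuA4 complex, stood at 2.13, 2.63, 2.38 and 1.95 RPKM in control and 1.85, 1.68, 2.04 and 2.22 RPKM in knockout libraries and overlapped between groups. Kat2b (PCAF) and Kat7 (HBO1) did not pass either and held 5.52 and 2.53 RPKM in control against 6.08 and 2.57 RPKM in knockout libraries on average. Summed over the class, the level was 22.4 to 25.9 RPKM in control and 23.4 to 24.6 RPKM in knockout libraries.

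Among the nuclear receptor coactivators 1 of 7 rose and 1 fell, which is 28.6% called against 35.3% of all tested genes. The member that rose, Ncoa4, is known foremost as the receptor that delivers ferritin to autophagosomes. Ncoa4 stood at 10.2, 10.8, 11.6 and 11.7 RPKM in control and 18.4, 15.5, 16.9 and 16 RPKM in knockout libraries. Averaged over all 8 libraries it had the highest level of all members, although in control libraries Mllt4 was as high, at 11.1 RPKM on average. No knockout library reached down to the control range (mean ± SD, n = 4, from 11.1 ± 0.688 to 16.7 ± 1.26 RPKM; log2 fold change 0.55 with an SE of 0.07, adjusted p = 0.000327; adjusted p at most 0.00193 without any 1 library). Ncoa7, a TLDc-domain protein linked to oxidative stress resistance, fell.
Ncoa7 stood at 1.83, 1.36, 1.01 and 1.31 RPKM in control and 0.714, 0.915, 1.1 and 0.87 RPKM in knockout libraries. Knockout replicate 19 lay above control replicate 13, so the groups overlapped (mean ± SD, n = 4, from 1.38 ± 0.342 to 0.899 ± 0.158 RPKM; log2 fold change -0.32 with an SE of 0.11, adjusted p = 0.0421). The call was lost without control replicate 11, 12 or 14 or knockout replicate 4, 5 or 20, with adjusted p = 0.0685 to 0.104, and with the library total alone (adjusted p = 0.113).

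The p160 coactivators Ncoa1, Ncoa2 and Ncoa3, which bind liganded nuclear receptors and bring in EP300 and CREBBP, did not pass. Ncoa1 stood at 3.55, 3.33, 3.05 and 3.32 RPKM in control and 3.37, 3.76, 2.74 and 3.26 RPKM in knockout libraries. Ncoa2 stood at 2.78, 2.34, 2.69 and 2.59 RPKM in control and 2.61, 2.94, 3.05 and 2.59 RPKM in knockout libraries. Ncoa3 stood at 3.03, 2.95, 2.49 and 2.33 RPKM in control and 2.16, 2.33, 2.51 and 2.7 RPKM in knockout libraries. The groups overlapped for each of these genes, and the 95% intervals of the log2 fold change were -0.19 to 0.16 for Ncoa1, -0.08 to 0.23 for Ncoa2 and -0.29 to 0.07 for Ncoa3. Ncoa5 and Ncoa6 did not pass either (adjusted p = 0.671 and 0.43). The class sum was 23.8 to 25.1 RPKM in control and 28.2 to 30.1 RPKM in knockout libraries, and Ncoa4 alone held 11.1 RPKM of it in control and 16.7 RPKM in knockout libraries.

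Among the bromodomain proteins 1 of 7 rose and 1 fell, which is 28.6% called against 35.3% of all tested genes. Brd7, a subunit of SWI/SNF remodelling complexes, stood at 3.82, 4.27, 3.93 and 3.49 RPKM in control and 3.03, 3.09, 3.16 and 2.59 RPKM in knockout libraries. Brd7 was lower in 4 of 4 knockout libraries, without overlap (mean ± SD, n = 4, from 3.88 ± 0.32 to 2.97 ± 0.257 RPKM; log2 fold change -0.30 with an SE of 0.07, adjusted p = 0.010), yet with the library total alone it did not pass (adjusted p = 0.178). Brd2, a BET protein that reads acetylated histones, stood at 7.24, 6.74, 7.39 and 7.1 RPKM in control and 8.06, 8.78, 8.68 and 8.16 RPKM in knockout libraries. Its knockout libraries were all higher (mean ± SD, n = 4, from 7.12 ± 0.279 to 8.42 ± 0.36 RPKM; log2 fold change 0.21 with an SE of 0.06, adjusted p = 0.0189), but the call was lost without control replicate 12 (adjusted p = 0.0640) or knockout replicate 5 (adjusted p = 0.0528) and with the listed-gene sum (adjusted p = 0.378). Brd1, a scaffold of acetyltransferase complexes, stood at 2.36, 2.13, 2.25 and 1.99 RPKM in control and 2.53, 2.64, 2.73 and 2.45 RPKM in knockout libraries. Its groups did not overlap and it lay just outside the threshold (log2 fold change 0.17 with an SE of 0.06, adjusted p = 0.0507). With no filter it passed (adjusted p = 0.0492), as it did with a pseudocount of 0.1 (adjusted p = 0.0451), with limma voom (adjusted p = 0.0390) and with the library total alone (adjusted p = 0.0096). Brd8, of the NuA4 complex, stood at 2.53, 2.45, 2.35 and 2.34 RPKM in control and 1.69, 2.49, 2.35 and 2.29 RPKM in knockout libraries. Its groups overlapped. Brd3 and Brd9 did not pass (adjusted p = 0.789 and 0.745).

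**Figure D3:**
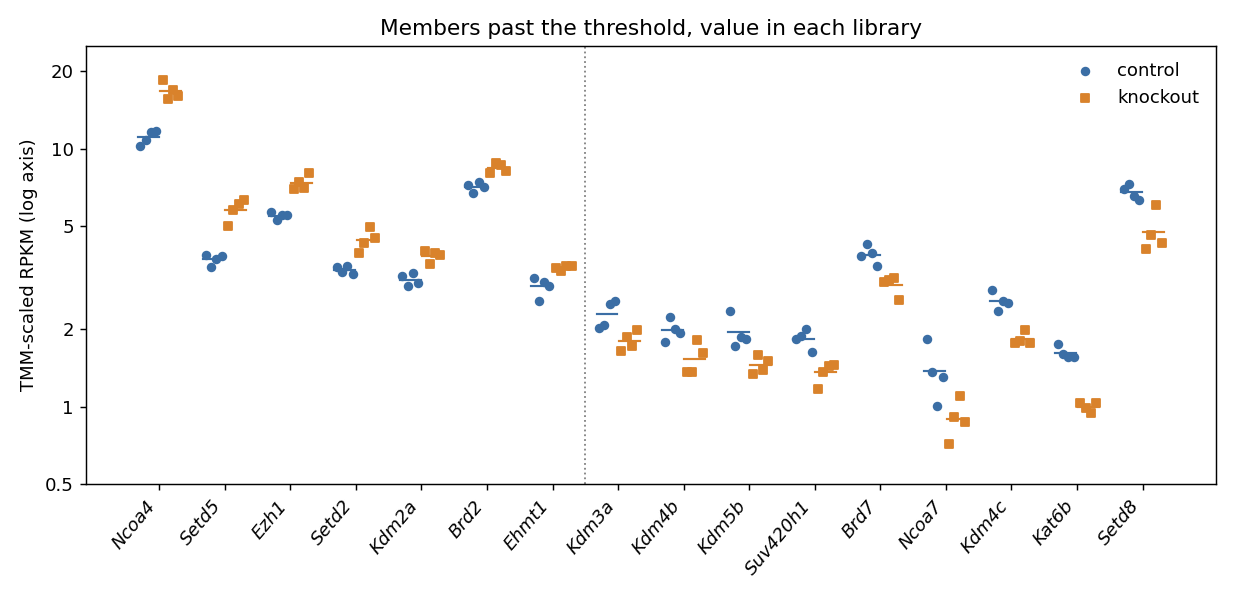
TMM-scaled RPKM on a log axis in each library for the 16 members past the threshold, with a line at each group mean; the dotted line parts the 7 that rose from the 9 that fell. Control and knockout points are apart for every gene shown except Ncoa7 and Kdm4b.

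The H3K27 methyltransferases differed in direction. Ezh1, the form of the catalytic subunit that prevails in tissue that does not divide, stood at 5.68, 5.29, 5.51 and 5.52 RPKM in control and 6.97, 7.41, 7.02 and 8.03 RPKM in knockout libraries. It rose in all knockout libraries (mean ± SD, n = 4, from 5.5 ± 0.163 to 7.36 ± 0.49 RPKM; log2 fold change 0.36 with an SE of 0.06, adjusted p = 0.00154). Ezh2, the form of dividing cells, had a mean below 1 RPKM and was not tested with the filter. Ezh2 stood at 1.07, 1.25, 1.24 and 0.905 RPKM in control and 0.776, 0.732, 0.591 and 0.832 RPKM in knockout libraries, which rests on 28 to 55 reads per library. Every knockout library was below every control library, and with no filter it fell (log2 fold change -0.29 with an SE of 0.08, adjusted p = 0.0191). The authors' deposited table holds log2 fold changes of 0.40 for Ezh1 and -0.62 for Ezh2, with an FDR of 0.000272 and 0.00425. The log2 fold changes above are of RPKM + 1, which understates changes of low genes, and cannot be set directly beside the deposited ones. By group means, knockout libraries held 133.8% of control for Ezh1 and 65.7% for Ezh2.

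Ratios of paralogues within a library do not depend on its scaling, and 6 pairs were compared. The ratio of Ezh1 to Ezh2 was 5.29, 4.23, 4.45 and 6.1 in control and 8.99, 10.1, 11.9 and 9.66 in knockout libraries. It was higher in 4 of 4 knockout libraries, 2.03-fold on average, although with 6 pairs the adjusted p did not pass (exact permutation test, two-sided p = 0.0286, adjusted p = 0.0857). The ratio of Kdm6a to Kdm6b, H3K27 demethylases, was 3.47, 3.97, 2.91 and 3.55 in control and 1.99, 2.42, 2.3 and 2.67 in knockout libraries. It was lower in 4 of 4 knockout libraries, with the same p and adjusted p. The ratio of Kat2a to Kat2b was 0.298, 0.213, 0.236 and 0.194 in control and 0.181, 0.133, 0.21 and 0.139 in knockout libraries, and these overlapped (exact permutation test, two-sided p = 0.0571, adjusted p = 0.114). The smallest p that 4 against 4 libraries allow is 0.0286, so that 1 or 2 such pairs among 6 cannot pass after adjustment. For Ep300 to Crebbp, Ehmt1 to Ehmt2 and Ncoa1 to Ncoa2 the groups overlapped (exact permutation test, p = 0.743, 0.543 and 0.514). A ratio shows unequal change and not which gene of a pair moved.

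**Figure D4:**
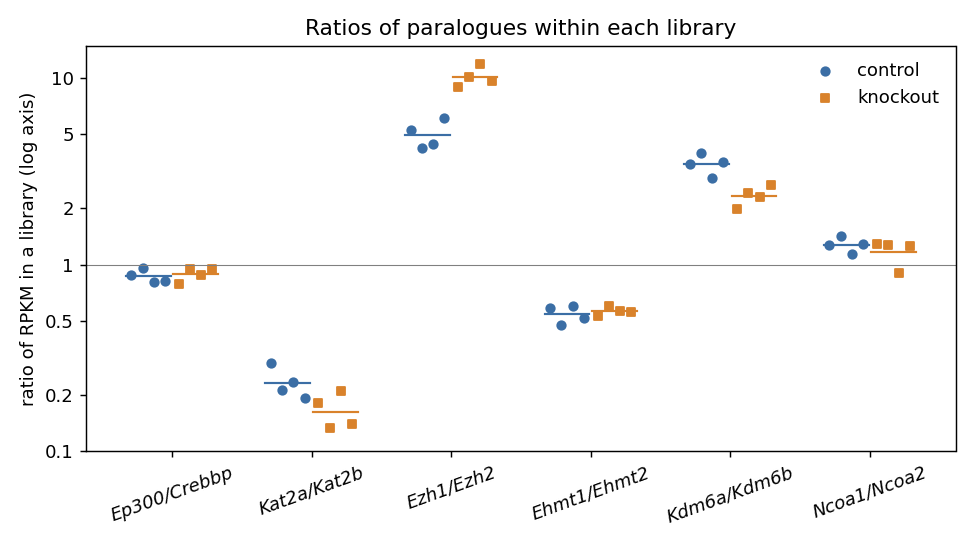
Ratio of the RPKM of 2 paralogues in each library, on a log axis, for the 6 pairs; circles are control and squares knockout libraries, with a line at each geometric mean. The genotypes are apart for Ezh1/Ezh2 (4.23 to 6.10 against 8.99 to 11.9) and Kdm6a/Kdm6b (2.91 to 3.97 against 1.99 to 2.67) and overlap for the other pairs.

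Among H3K9 methyltransferases 1 of 3 tested rose, against 19.4% of all tested genes. Ehmt1 (GLP) stood at 3.16, 2.57, 3.03 and 2.92 RPKM in control and 3.45, 3.37, 3.51 and 3.52 RPKM in knockout libraries. All knockout libraries were higher (mean ± SD, n = 4, from 2.92 ± 0.25 to 3.46 ± 0.0672 RPKM; log2 fold change 0.19 with an SE of 0.06, adjusted p = 0.041), but the call was lost without any 1 library other than control replicate 11 (adjusted p = 0.0636 to 0.123) and with the listed-gene sum (adjusted p = 0.445), and the authors' deposited table gives it an FDR of 0.0647. Ehmt2 (G9a), its partner in the enzyme that places H3K9 mono- and dimethylation, stood at 5.4, 5.43, 5.07 and 5.69 RPKM in control and 6.53, 5.61, 6.18 and 6.35 RPKM in knockout libraries. It overlapped in knockout replicate 5 alone (log2 fold change 0.16 with an SE of 0.06, adjusted p = 0.0754), and without that library it passed (adjusted p = 0.0455), as it did with the library total alone (adjusted p = 0.00895). Setdb1, which trimethylates H3K9, stood at 2.26, 1.9, 2.35 and 1.86 RPKM in control and 1.94, 1.99, 1.91 and 1.81 RPKM in knockout libraries and overlapped. Suv39h1 and Setdb2 were below the filter, with means of 0.669 and 0.851 RPKM in control and 0.607 and 0.762 RPKM in knockout libraries, and passed in neither fit.

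Of 3 H4K20 methyltransferases 2 fell under TMM scaling, 0 passed with the library total alone and 3 were lower with the listed-gene sum. Of all tested genes, 15.9%, 7.17% and 30.1% were lower under these scalings, in that order. Setd8, which monomethylates H4K20, stood at 6.98, 7.32, 6.58 and 6.31 RPKM in control and 4.1, 4.64, 6.05 and 4.3 RPKM in knockout libraries. Knockout replicate 19 lay close to the control range and the other knockout libraries well below it (mean ± SD, n = 4, from 6.8 ± 0.446 to 4.77 ± 0.881 RPKM; log2 fold change -0.44 with an SE of 0.10, adjusted p = 0.00677; adjusted p = 0.0682 with the library total alone). Suv420h1, which adds further methyl groups to it, stood at 1.83, 1.88, 2.01 and 1.62 RPKM in control and 1.17, 1.36, 1.44 and 1.46 RPKM in knockout libraries. All knockout libraries were lower (mean ± SD, n = 4, from 1.83 ± 0.159 to 1.36 ± 0.131 RPKM; log2 fold change -0.27 with an SE of 0.07, adjusted p = 0.0142; adjusted p = 0.184 with the library total alone). Suv420h2 stood at 3.01, 3.9, 2.95 and 3.27 RPKM in control and 2.34, 3.25, 2.87 and 2.86 RPKM in knockout libraries and did not pass with TMM (adjusted p = 0.207), but did with the listed-gene sum (adjusted p = 0.0378). The summed level of these genes was 11.2 to 13.1 RPKM in control and 7.61 to 10.4 RPKM in knockout libraries, without overlap under TMM scaling. The sums were formed with that scaling alone. Setd8 by itself held 6.8 RPKM of the sum in control and 4.77 RPKM in knockout libraries on average.

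Among other SET-domain proteins 2 of 5 rose and none fell, against 19.4% and 15.9% of all tested genes. Setd5, which has been found in complexes with HDAC3 and NCoR, stood at 3.87, 3.47, 3.74 and 3.82 RPKM in control and 5.01, 5.78, 6.1 and 6.32 RPKM in knockout libraries. No knockout library overlapped the control range (mean ± SD, n = 4, from 3.72 ± 0.176 to 5.8 ± 0.576 RPKM; log2 fold change 0.52 with an SE of 0.07, adjusted p = 0.000451; adjusted p at most 0.0024 without any 1 library). Setd2, which trimethylates H3K36 along transcribed genes, stood at 3.48, 3.33, 3.51 and 3.26 RPKM in control and 3.95, 4.32, 4.95 and 4.49 RPKM in knockout libraries. It rose in 4 of 4 knockout libraries (mean ± SD, n = 4, from 3.4 ± 0.12 to 4.43 ± 0.417 RPKM; log2 fold change 0.30 with an SE of 0.07, adjusted p = 0.00694), but not with the listed-gene sum (adjusted p = 0.0657). Setd4 stood at 0.62, 1.16, 0.904 and 1.18 RPKM in control and 0.955, 1.4, 1.02 and 1.7 RPKM in knockout libraries on 17 to 60 reads per library. Setd6, which methylates the NF-κB subunit RelA, stood at 0.838, 1.49, 1.2 and 1.41 RPKM in control and 1.31, 1.46, 1.48 and 1.3 RPKM in knockout libraries. Neither passed, and control replicate 11 was the lowest library for both. Setd3, now known as a histidine methyltransferase of actin, held 9.62 and 10.1 RPKM on average (adjusted p = 0.464).

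Of the H3K4 methyltransferases matched by the rule 0 of 2 passed (limma; 0 at an unadjusted p below 0.05, 0 with limma voom). Of all tested genes 35.3% passed with limma and 36.8% with limma voom. Setd1a, of the COMPASS complexes, stood at 1.16, 0.95, 1.11 and 1.18 RPKM in control and 1.2, 0.957, 1.12 and 0.896 RPKM in knockout libraries. Setd7, which monomethylates H3K4 and other proteins, stood at 2.05, 1.79, 2.6 and 1.84 RPKM in control and 1.98, 1.9, 1.76 and 2.08 RPKM in knockout libraries. The groups overlapped for both. The genes Kmt2a to Kmt2e were added as a list by symbol after the table was opened, because the rule does not match them. The list had 0 of 5 called (limma), and 1 of the 5, Kmt2e, had an unadjusted p below 0.05. Kmt2e went from 3.36 ± 0.315 to 4.16 ± 0.537 RPKM (SD, n = 4; adjusted p = 0.0583). With the library total alone and with limma voom Kmt2e passed, and the authors' deposited table gives it an FDR of 0.0393.

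Of 14 tested demethylases 1 rose and 4 fell, which is 35.7% called against 35.3% of all tested genes. Kdm4c, which removes H3K9 and H3K36 trimethylation, stood at 2.84, 2.34, 2.57 and 2.52 RPKM in control and 1.77, 1.8, 1.98 and 1.76 RPKM in knockout libraries. It was lower in 4 of 4 knockout libraries (mean ± SD, n = 4, from 2.57 ± 0.209 to 1.83 ± 0.105 RPKM; log2 fold change -0.33 with an SE of 0.06, adjusted p = 0.0028) and lay just outside the threshold with the library total alone (adjusted p = 0.0518). Kdm4b, of the same family, stood at 1.78, 2.23, 1.99 and 1.94 RPKM in control and 1.36, 1.36, 1.81 and 1.61 RPKM in knockout libraries. Its groups overlapped in knockout replicate 19 (mean ± SD, n = 4, from 1.99 ± 0.19 to 1.54 ± 0.217 RPKM; log2 fold change -0.24 with an SE of 0.08, adjusted p = 0.0398), and the call was lost without control replicate 12, 13 or 14 or knockout replicate 4, 5 or 20 (adjusted p = 0.0597 to 0.10). Kdm4a went the other way without passing, from 2.4 ± 0.206 to 2.81 ± 0.175 RPKM (SD, n = 4; adjusted p = 0.0752), and passed without control replicate 11 (adjusted p = 0.0496) or knockout replicate 4 (adjusted p = 0.0493) and with the library total alone (adjusted p = 0.00739).

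Kdm5b, which removes H3K4 trimethylation, stood at 2.36, 1.72, 1.86 and 1.83 RPKM in control and 1.34, 1.59, 1.39 and 1.51 RPKM in knockout libraries. The groups did not overlap (mean ± SD, n = 4, from 1.94 ± 0.283 to 1.46 ± 0.114 RPKM; log2 fold change -0.26 with an SE of 0.08, adjusted p = 0.028), but the call was lost without control replicate 11 (adjusted p = 0.0541) or knockout replicate 4 or 19 (adjusted p = 0.0666 and 0.0647). Its relatives Kdm5a, X-linked Kdm5c and Y-linked Kdm5d did not pass, with log2 fold changes of -0.09, 0.15 and -0.03. Kdm3a, the H3K9 demethylase linked to obesity in mice, stood at 2.01, 2.07, 2.5 and 2.56 RPKM in control and 1.64, 1.85, 1.71 and 1.98 RPKM in knockout libraries. It was lower in 4 of 4 knockout libraries (mean ± SD, n = 4, from 2.29 ± 0.285 to 1.8 ± 0.148 RPKM; log2 fold change -0.23 with an SE of 0.08, adjusted p = 0.040), and the call was lost without control replicate 13 or 14 or knockout replicate 4, 5 or 19 (adjusted p = 0.0636 to 0.0933). With the library total alone neither Kdm3a, Kdm4b nor Kdm5b passed (adjusted p = 0.368, 0.35 and 0.176).

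Kdm2a, which removes H3K36 methylation at CpG islands, stood at 3.2, 2.93, 3.29 and 3.02 RPKM in control and 4.0, 3.57, 3.93 and 3.89 RPKM in knockout libraries. It rose in every knockout library (mean ± SD, n = 4, from 3.11 ± 0.165 to 3.85 ± 0.189 RPKM; log2 fold change 0.24 with an SE of 0.06, adjusted p = 0.0116), but not with the listed-gene sum (adjusted p = 0.152). Kdm2b, which ties a Polycomb complex to CpG islands, was below the filter and went from 0.785 ± 0.077 to 0.58 ± 0.0914 RPKM (SD, n = 4). Its knockout libraries were all lower without passing in the fit with no filter (log2 fold change -0.18 with an SE of 0.07, adjusted p = 0.0838), while the authors' deposited table gives an FDR of 0.0191. Kdm1a (LSD1), which removes H3K4 mono- and dimethylation, stood at 2.65, 2.73, 2.55 and 2.79 RPKM in control and 2.53, 2.83, 3.03 and 2.64 RPKM in knockout libraries. It overlapped, with a 95% interval of -0.11 to 0.17 for the log2 fold change. Kdm1b, Kdm3b and Kdm7a did not pass (adjusted p = 0.77, 0.565 and 0.172).

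The H3K27 demethylases Kdm6a and Kdm6b differed in level. Kdm6a (UTX) stood at 2.19, 2.28, 1.85 and 2.27 RPKM in control and 2.04, 1.94, 2.11 and 2.03 RPKM in knockout libraries and overlapped (adjusted p = 0.558). Kdm6b (JMJD3), an inducible form, was below the filter and stood at 0.631, 0.574, 0.637 and 0.638 RPKM in control and 1.02, 0.799, 0.916 and 0.761 RPKM in knockout libraries. Its knockout libraries were all higher, and with no filter it rose (log2 fold change 0.21 with an SE of 0.07, adjusted p = 0.0387). Summed over 16 demethylases the level was 33.3 to 35.9 RPKM in control and 32.6 to 35.5 RPKM in knockout libraries, and these ranges overlap.

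The Mllt genes, matched by name only, had 0 of 4 tested members called (limma; 0 of 4 at an unadjusted p below 0.05, 0 with limma voom, and Mllt4 and Mllt6 lower with the listed-gene sum). Of all tested genes 35.3% were called, and 30.1% were lower with the listed-gene sum. Mllt4 (afadin), an adaptor of cell junctions, stood at 11.8, 10.8, 11.7 and 10.1 RPKM in control and 7.46, 10.2, 8.85 and 11.8 RPKM in knockout libraries. Mllt6 and Mllt10, partners of the H3K79 methyltransferase DOT1L, went from 3.17 ± 0.103 to 2.9 ± 0.123 RPKM and from 2.6 ± 0.0661 to 2.45 ± 0.338 RPKM. Mllt6 stood at 3.21, 3.16, 3.27 and 3.03 RPKM in control and 2.78, 3.06, 2.84 and 2.92 RPKM in knockout libraries. Mllt10 stood at 2.51, 2.66, 2.62 and 2.62 RPKM in control and 1.96, 2.71, 2.47 and 2.64 RPKM in knockout libraries, with knockout replicate 4 the low one. Mllt1, a reader of acylated histones in elongation complexes, stood at 1.09, 1.23, 1.29 and 1.32 RPKM in control and 1.24, 1.29, 1.2 and 1.1 RPKM in knockout libraries. Mllt3, its paralogue, and Mllt11 were below the filter, at 0.659 and 0.571 RPKM in control and 0.39 and 0.415 RPKM in knockout libraries on average. The authors' deposited table gives an FDR of 0.00359 for Mllt3, whereas with no filter its adjusted p here was 0.0764.

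Other genes of the same pathways were compared from fixed lists. Of 21 genes tested from the list of other writers and erasers 3 rose and 1 fell, which is 19% against 35.3% of all tested genes. These were Dot1l, from 1.47 ± 0.215 to 2.54 ± 0.436 RPKM, Jmjd1c, a KDM3 relative, from 3.53 ± 0.344 to 4.87 ± 0.462 RPKM, Jmjd8 from 7.04 ± 0.686 to 9.11 ± 0.195 RPKM, and Prmt2, an arginine methyltransferase, from 1.44 ± 0.177 to 0.928 ± 0.237 RPKM. Of 43 tested partners in the writer and eraser complexes 3 rose and 5 fell, which is 18.6%. Both shares lay below that of all tested genes. Those with the smallest adjusted p were Dpy30, a shared COMPASS subunit, from 4.01 ± 0.327 to 2.93 ± 0.306 RPKM, Ruvbl2, an ATPase of remodelling complexes, from 6.21 ± 0.952 to 8.95 ± 1.14 RPKM, Tada2b, of SAGA, from 2.51 ± 0.39 to 1.77 ± 0.192 RPKM, and Msl3, a partner of KAT8, from 3.1 ± 0.124 to 2.56 ± 0.167 RPKM. With the library total alone 6 rose and none fell in each of these lists, against 31.9% and 7.17% of all tested genes. With the listed-gene sum 2 rose and 5 fell among writers and erasers and 1 rose and 12 fell among partners. All tested genes gave 12.4% higher and 30.1% lower under that scaling. The call of Msl3 was lost without control replicate 12 or 14 or knockout replicate 19 or 20 (adjusted p up to 0.0629). Errors are SD with n = 4.

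Among 14 genes of the supply of acetyl-CoA and S-adenosylmethionine, the donors of acetyl and methyl groups, 4 rose and 2 fell, which is 42.9% against 35.3% of all tested genes. Their median log2 fold change was -0.0026. With the library total alone 6 were higher and 2 lower, with the listed-gene sum 2 and 5, and with no filter 3 and 2. In these fits 31.9% and 7.17%, 12.4% and 30.1%, and 16.7% and 14.1% of all genes were higher and lower. Acss2, which makes acetyl-CoA from acetate, stood at 11.4, 13.4, 13.2 and 14.2 RPKM in control and 30.7, 25.5, 36.7 and 27 RPKM in knockout libraries. Slc25a1, which exports mitochondrial citrate, stood at 14.8, 15.3, 23.2 and 19.7 RPKM in control and 44.5, 29.9, 51.5 and 41.9 RPKM in knockout libraries. Both rose without overlap (adjusted p = 5.3e-05 and adjusted p = 0.000736). Ahcyl1, a relative of adenosylhomocysteinase without its known activity, fell from 33.6 ± 4.75 to 15.9 ± 1.09 RPKM, and Mtr, methionine synthase, from 2.71 ± 0.318 to 1.5 ± 0.112 RPKM (adjusted p = 5e-05 and adjusted p = 0.000323; SD, n = 4). These 4 genes kept their call with the library total alone and with the listed-gene sum. The other 2 that rose, Idh1 and Acly, did not pass with the listed-gene sum (adjusted p = 0.19 and 0.101). Acly also lost its call with no filter (adjusted p = 0.0548) and without control replicate 11, 12 or 14 or knockout replicate 4 or 19 (adjusted p up to 0.115). Idh1 lost its call without control replicate 11, 12 or 13 or knockout replicate 19 (adjusted p up to 0.0787). Several of these genes also serve lipid synthesis.

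Markers of cell types moved in the same libraries as these genes. Of 10 adipocyte markers 7 rose, and the sum of all 10 was 2685 to 2911 RPKM in control and 5240 to 6513 RPKM in knockout libraries. Fabp4 alone held 1697 RPKM of this sum in control and 3985 RPKM in knockout libraries on average. Pnpla2, Pparg and Cd36 did not pass with TMM (limma, adjusted p = 0.362, 0.399 and 0.884). Of 14 listed macrophage markers 13 rose, with a sum of 51.2 to 66.4 RPKM in control and 103 to 123 RPKM in knockout libraries. Among all tested genes 19.4% rose and 15.9% fell. Endothelial markers were called lower for 2 of 12 and higher for 0, with 0 of 12 lower with the library total alone and 6 with the listed-gene sum, and sums of 105 to 128 RPKM in control and 93.2 to 116 RPKM in knockout libraries. Of 10 fibroblast markers 2 rose, 1 of 6 smooth muscle and pericyte markers and 1 of 3 nerve markers fell, and no erythroid marker passed (0 of 5). With the listed-gene sum 3 of 6 smooth muscle and pericyte markers were lower, and 1 fibroblast marker was higher. Of all tested genes, 30.1% were lower and 12.4% higher with that sum, and 7.17% were lower with the library total alone. Of 8 brown adipocyte markers 2 rose and 5 fell, with sums of 792 to 977 RPKM in control and 571 to 713 RPKM in knockout libraries. Ucp1, which defines the brown adipocyte, stood at 147, 213, 117 and 159 RPKM in control and 2.02, 3.45, 8.26 and 2.32 RPKM in knockout libraries, without overlap. Elovl3, a fatty acid elongase of brown fat, was at 0 in control replicates 11, 12 and 13, at 0.0347 RPKM in control replicate 14, and at 2.78, 2.76, 11 and 2.55 RPKM in knockout libraries. It was among the 2 that rose (adjusted p = 0.000527) and reached a mean of 1 RPKM through the knockout libraries alone, of which replicate 19 was by far the highest. No skeletal muscle marker and 1 of 6 lymphocyte markers, Cd79a at 0.0983 to 0.867 RPKM in control libraries, was among the listed genes. The part of these shifts in the levels of the histone enzymes was not tested.

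Gene models that overlap a member in RefSeq could share its reads, since the sources used here do not give the strand setting. Among members called in either fit, such models lie over Brd2 (H2-DMa), Brd7 (Adcy7), Kdm2a (9430078G10Rik) and Kdm5b (Mgat4e), and noncoding models or a pseudogene over Ncoa7, Brd1, Ezh2, Suv420h1, Kdm4b and Kdm6b. Their values are uncertain to that extent.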

How the data were processed

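TopHat2, featureCounts, edgeR and build mm9 are named, without role or order, per the submitters' processing notes. The sources used here do not give versions, annotation, strand setting or gene filter. For 11234 genes the authors deposited, per the file headers, the RPKM of 8 libraries. Beside these the authors deposited a p-value with its FDR, and a fold change and mean CPM as log2. Whole reads, library totals and gene lengths were recovered from the RPKM (100% of values whole within 0.001 reads; 43 genes corrected for a shared factor).

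RPKM were divided by TMM factors (trims 0.3 and 0.05), and limma 3.58.1 in R 4.3.3, with a trend, was run on log2(RPKM + 1) of the 8764 genes whose mean reached 1 RPKM. Such fold changes understate changes of low genes. Tests were two-sided, Benjamini-Hochberg adjusted over all genes tested. Folds in the text are ratios of group means. Alternatives were RLE factors, the library total, the listed-gene sum, no filter, a mean of at least 2 RPKM, limma voom on recovered reads, a pseudocount of 0.1, the authors' FDR, and leaving out each library. The method was tested on simulated data. With a dispersion (the spread between libraries) of 0.05, it called 6.35% of 63 genes changed 1.5-fold and 57.6% of 59 changed 2-fold. It called 100% of 63 genes changed 4-fold and 0.117% of 8555 unchanged genes. That dispersion was set and not estimated from these libraries. Under that setting most changes of 1.5-fold went uncalled. Promoter windows came from RefSeq GRCm38.p6. By symbol or synonym, 62 members matched and 52 had a window. Tables were made in Python 3.11.15 (pandas 2.3.3, numpy 2.4.6) and plots in matplotlib 3.10.9.

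Members, classes and lists were chosen with earlier results of these data known. Every member past the threshold is named. Values by library are given for up to 4 members of each class with the smallest adjusted p and for Ep300, Crebbp, Ezh1, Ezh2, Kdm1a, Kdm3a, Kdm6a, Kdm6b, Ehmt1 and Ncoa1 to Ncoa3. The values of 1 member are not reported here. From each list of other writers and erasers, complex partners and donor supply, up to 4 genes with the smallest adjusted p are named. Cell type markers were not named by that rule. Adcy7, H2-DMa and the other overlapping models, Kmt2e, Idh1, Acly, Fabp4, Pnpla2, Pparg, Cd36, Cd79a, Ucp1 and Elovl3 were named after their values or places were seen.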

Additional observations from a re-analysis of the deposited data

Results flagged for a closer look

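In 3 of 136 groups of 4 libraries (62 genes and 6 ratios in each genotype) the lowest library stood far from the rest by Dixon's criterion, and about 6.8 such groups come by chance, 1 in 20. For Kdm4a this was knockout replicate 4, at 2.55 RPKM, while the remaining knockout libraries held 2.89 to 2.91 RPKM. For Kdm6b it was control replicate 12, at 0.574 RPKM, while the remaining control libraries held 0.631 to 0.638 RPKM. The ratio of Ncoa1 to Ncoa2 was 0.899 in knockout replicate 19 and 1.26 to 1.29 in the remaining knockout libraries.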

How the results depend on the processing

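No paired analysis was possible because the genotypes share no replicate number. The 7 members higher and 9 lower became 14 and 1 when the library total was used alone and 3 and 15 under the listed-gene sum, and 4 were lower, among 39 members, with a mean of at least 2 RPKM; the counts stayed within 1.5 times of 7 and 9 with RLE factors, no filter, a pseudocount of 0.1, limma voom and the authors' FDR (7 and 12 of 62). Without 1 library, 5 to 9 members were higher and 5 to 7 lower, the 5 lower without knockout replicate 4. Over such fits Hdac3 had a log2 fold change of -1.09 to -0.95, and the log2 difference of the ratio was 0.95 to 1.12 for Ezh1/Ezh2, -0.65 to -0.49 for Kdm6a/Kdm6b, -0.63 to -0.39 for Kat2a/Kat2b, 0.0030 to 0.0941 for Ep300/Crebbp, -0.0055 to 0.106 for Ehmt1/Ehmt2 and -0.18 to -5.19e-05 for Ncoa1/Ncoa2. None of the 16 called members changed direction under these alternatives. Beyond scaling, the cause of lost calls was not tested. Low read numbers limit Mllt11, Setd4, Setd6, Ezh2, Mllt3, Suv39h1 and Setdb2, whose lowest library held from 16 reads (Mllt11) to 33 reads (Setdb2).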
